A study of Homo sapiens with 8 samples.

Results

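Transcript levels of 9 genes of matrix turnover, the matrix metalloproteinases MMP1, MMP2, MMP3, MMP10, MMP13 and MMP14 and the tissue inhibitors TIMP1, TIMP2 and TIMP3, were read by name from a table of 22504 genes. They were chosen by name after FPKM values of these same libraries, the fall of MMP3 with serum among them, had been seen, so the counts of changed genes below describe the 9 genes and are not independent evidence about the family. RNA was sequenced from U2OS cells, an established human osteosarcoma line, and thus tumour cells rather than a normal tissue. The 4 groups, with 2 libraries each, were cells overexpressing the G13R mutant of actin after serum stimulation, the same G13R cells in normal growth, cells expressing GFP after serum stimulation, and the same GFP cells in normal growth. Normal growth was the baseline for serum, and GFP was the control for G13R. The labels give neither the length of the serum treatment nor the actin gene, and the 2 libraries of a group are not stated to be separate cultures, so the spread behind each p-value may be technical. Levels are FPKM, fragments scaled by transcript length and by library size, which can be compared between genes because of the scaling by length, and errors are SD with n = 2 libraries a group.

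Matrix metalloproteinases are zinc-dependent endopeptidases that are made as inactive proenzymes and cleave collagens, proteoglycans and other matrix proteins once the prodomain has been removed. TIMPs bind their active sites and block them, and on the cell surface TIMP2 also serves as the bridge through which the membrane-bound enzyme MMP14 activates proMMP2. In cells of bone these enzymes are known for the turnover of the collagen matrix, and in osteosarcoma for invasion. MMP1, MMP3, MMP10 and MMP13 lie in a single cluster of MMP genes on chromosome 11, and several of them are textbook targets of the AP-1 factors FOS and JUN.

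The label was checked against markers of the cells. Of 7 osteoblast lineage markers, 6 reached 1 FPKM in at least 2 libraries, and COL1A2 did not. Of the markers of other cell types, 4 of 5 epithelial, 3 of 5 neural (RBFOX3, MAP2 and OLIG2), 2 of 7 leukocyte and macrophage (ITGAM and CSF1R) and 0 of 5 endothelial ones reached it. PECAM1 was listed at 0 in all 8 libraries, and the leukocyte markers PTPRC and CD14 stayed below 1 FPKM. ACTB (chr7:5566782-5603415) averaged 8313 ± 514 FPKM in G13R cells after serum, 10628 ± 873 FPKM in G13R cells in normal growth, 2579 ± 50.8 FPKM in GFP cells after serum and 2690 ± 125 FPKM in GFP cells in normal growth. It was higher in all 4 G13R libraries, although FPKM cannot tell a transgene from the gene itself. Between 12065 and 12568 genes reached 1 FPKM in a library. The 2nd GFP serum library stood apart: on a first principal component holding 53.9% of the variance it lay at 44.7, against 26.0 for its partner, 11.8 and 14.5 for the G13R serum libraries and −25.3 to −21.6 for the 4 normal growth libraries. Replicates differed by more than 2-fold in 186 genes in the GFP serum group and in 87 to 102 genes in the other groups. Fold changes of the 9 genes that rest on that library are also given without it.

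Promoter sequences of 4 of the 9 genes, MMP10, MMP14, TIMP1 and TIMP3, were found in the RefSeq table for GRCh38.p14, as windows of 300 bases (250 before the start site and 50 after it). The 250 bases before the start are shown for all 4 of them, 5′ to 3′ on the gene's own strand. MMP14 and TIMP3 changed with serum in both cell types, and TIMP1 and MMP10 had the highest and lowest mean level of the set over all libraries. MMP10 is at chr11:102780629-102780878 on the minus strand, and MMP14 at chr14:22836335-22836584, TIMP1 at chrX:47582186-47582435 and TIMP3 at chr22:32801455-32801704 are on the plus strand. Capitals mark a TATA box (TATAAA) in MMP10 and an ETS motif (AGGAAG) in TIMP1.
MMP14: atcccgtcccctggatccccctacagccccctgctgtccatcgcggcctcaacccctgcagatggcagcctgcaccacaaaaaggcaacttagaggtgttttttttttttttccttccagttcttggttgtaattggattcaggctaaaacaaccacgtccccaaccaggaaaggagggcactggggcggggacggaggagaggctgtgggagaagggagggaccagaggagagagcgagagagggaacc
TIMP3: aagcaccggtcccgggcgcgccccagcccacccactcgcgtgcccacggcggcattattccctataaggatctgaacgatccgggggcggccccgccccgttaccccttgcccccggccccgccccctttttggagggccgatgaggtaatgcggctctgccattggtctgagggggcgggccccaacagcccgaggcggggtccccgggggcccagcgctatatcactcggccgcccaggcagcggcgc
TIMP1: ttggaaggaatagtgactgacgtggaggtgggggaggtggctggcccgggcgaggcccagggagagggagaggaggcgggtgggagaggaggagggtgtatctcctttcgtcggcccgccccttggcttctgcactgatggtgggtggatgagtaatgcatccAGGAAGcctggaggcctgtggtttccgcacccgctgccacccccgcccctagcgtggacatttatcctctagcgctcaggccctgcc
MMP10: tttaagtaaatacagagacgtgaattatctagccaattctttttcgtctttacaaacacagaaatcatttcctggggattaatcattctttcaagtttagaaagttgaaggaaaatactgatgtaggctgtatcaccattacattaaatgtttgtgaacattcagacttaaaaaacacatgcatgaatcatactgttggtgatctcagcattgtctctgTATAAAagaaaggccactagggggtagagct

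Both strands of the whole windows were searched for AP-1 motifs (TGAGTCA or TGACTCA), the TATA box, the ETS motif and the CArG box of serum response factor; none of these motifs overlaps another in the hits shown. Of 35116 promoter windows, 4.95% hold the AP-1 motif, 11.5% the TATA box, 33.6% the ETS motif and 1.29% a CArG box. MMP10 holds the TATA box, 31 bases before the start, and TIMP1 the ETS motif, 87 bases before the start. None of the motifs searched is in the MMP14 or TIMP3 window. The windows also differ in base composition, with a GC content of 36.3% and 2 CpG pairs in MMP10, 55.0% and 10 in MMP14, 65.0% and 16 in TIMP1 and 72.7% and 31 in TIMP3, against medians of 58.7% and 14 over all windows. The remaining genes are MMP1, MMP2, MMP3, MMP13 and TIMP2.

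TIMP1 was the most abundant of the 9 transcripts in every library, and what came next depended on serum. In all 4 normal growth libraries the order continued with MMP3, then MMP2, then MMP14 and TIMP2, which exchanged places between replicates of G13R cells, then TIMP3 and MMP1. After serum MMP2 held the next place in all 4 libraries. MMP3 followed in G13R cells, whereas in GFP cells it stood below TIMP2 and MMP14 and changed places with TIMP3 between replicates. MMP10 and MMP13 were lowest or close to it, near 1 FPKM.

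**Figure D1:**
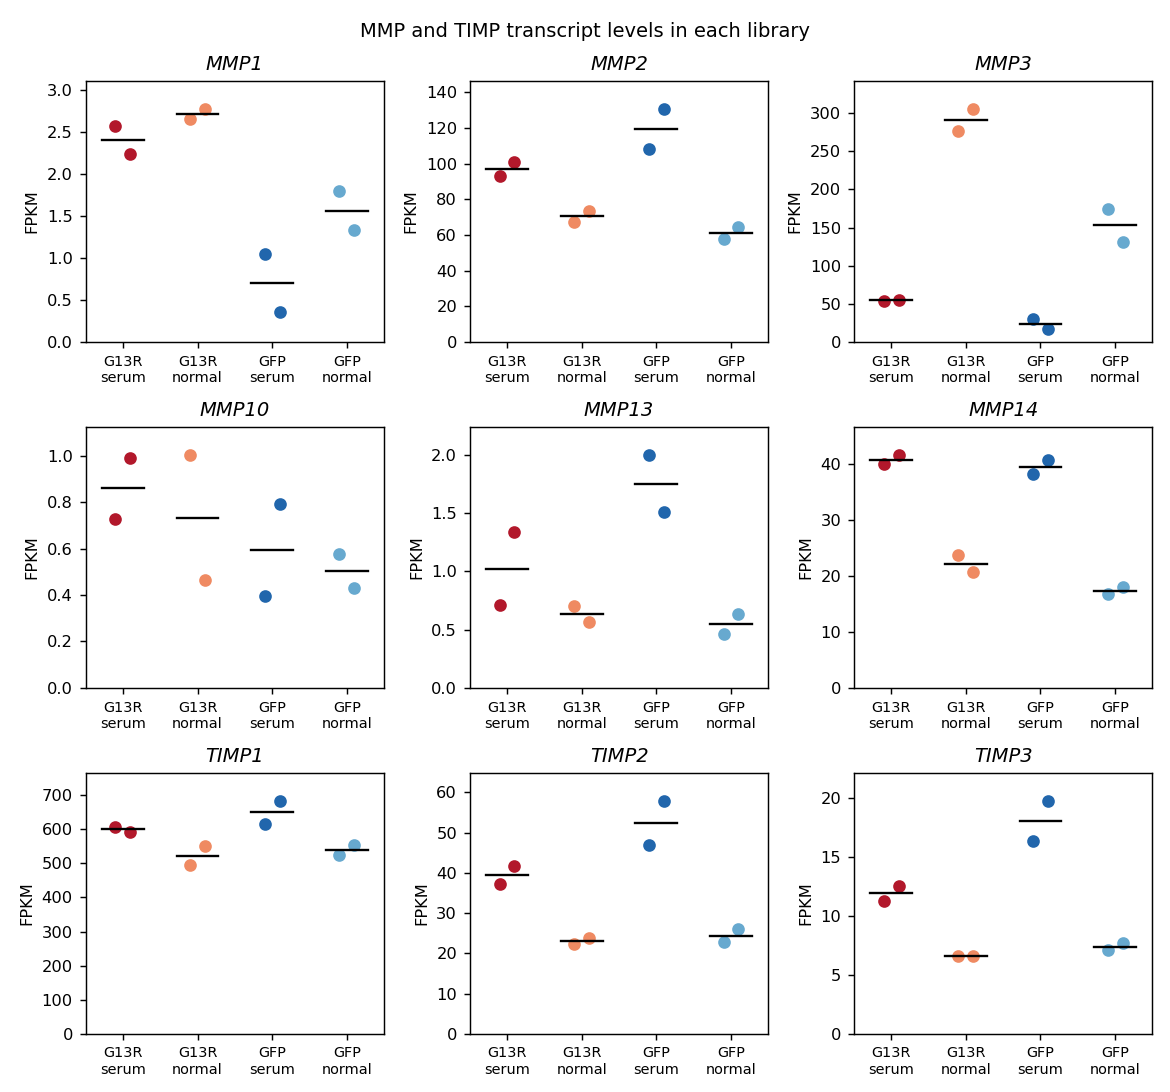
Level of each of the 9 genes in FPKM (vertical axis, linear, each panel with its own scale from 0) in the 8 libraries, grouped along the horizontal axis as G13R serum, G13R normal, GFP serum and GFP normal. Each point is a library and each line a group mean of 2; MMP3 is lowest after serum, and MMP2, MMP14, TIMP2 and TIMP3 are highest after serum, in both cell types.

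MMP3 (stromelysin-1, chr11:102706532-102714534 in hg19), which cleaves proteoglycans, fibronectin and laminin and activates other proMMPs, had the widest range of the set, 3.59 log2 units between its highest and lowest group mean. It had 53.6 and 55.6 FPKM in G13R cells after serum and 277 and 305 FPKM in G13R cells in normal growth. GFP cells had 30.5 and 17.5 FPKM after serum and 175 and 132 FPKM in normal growth. All serum libraries were below all normal growth libraries, and within each condition both G13R libraries were above both GFP libraries. On the log2(FPKM + 1) scale MMP3 fell with serum by 2.39 ± 0.21 (SE) in G13R cells (limma, Benjamini-Hochberg adjusted p = 2.04e-04 over the 12996 genes tested). In GFP cells its log2 fold change was -2.66 ± 0.21 (limma adjusted p = 4.62e-05). In plain FPKM the serum mean was 0.188 times the normal growth mean in G13R cells and 0.157 times in GFP cells. Here, as in all results below, fewer cells of a type and less RNA per cell cannot be told apart in bulk RNA. A change was called at an adjusted p under 0.05.

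MMP10 (stromelysin-2, chr11:102641234-102651359), the nearest relative of MMP3 in the set, ranged over 0.397 to 1.004 FPKM. It reached 1 FPKM in 1 library only, a G13R library in normal growth, and so was not tested. Its group means were 0.860 FPKM in G13R cells after serum, 0.734 FPKM in G13R cells in normal growth, 0.594 FPKM in GFP cells after serum and 0.503 FPKM in GFP cells in normal growth, with groups that overlapped. The 2 stromelysin genes therefore differed widely in level in the same libraries. Their transcripts share 59 windows of 50 identical bases, which is 2.88% of the windows of MMP3 and 3.36% of those of MMP10, and no other pair among the 9 shares any. The sources used here do not say how reads in such stretches were assigned.

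MMP1 (interstitial collagenase, chr11:102660651-102668891), which makes the first cut in fibrillar collagen, was low. It had 2.57 and 2.23 FPKM in G13R cells after serum and 2.65 and 2.77 FPKM in G13R cells in normal growth. GFP cells had 1.05 and 0.358 FPKM after serum and 1.79 and 1.33 FPKM in normal growth. Serum and normal growth libraries of the same cells did not overlap, and all 4 G13R libraries were above all 4 GFP libraries. No difference in MMP1 was called: the log2 fold change with serum was -0.13 ± 0.24 in G13R cells (limma adjusted p = 0.763) and -0.61 ± 0.24 in GFP cells (adjusted p = 0.0774). Without the 2nd GFP serum library the value in GFP cells was -0.31. The pseudogene WTAPP1, which overlaps MMP1, MMP3 and MMP10, ranged over 0.422 to 1.80 FPKM, a level close to that of MMP1 itself, and whether counting used strand is not stated.

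MMP13 (collagenase-3, chr11:102813724-102826463), the collagenase best known from bone and cartilage, had 0.711 and 1.34 FPKM in G13R cells after serum and 0.707 and 0.567 FPKM in G13R cells in normal growth. GFP cells had 2.00 and 1.51 FPKM after serum and 0.464 and 0.633 FPKM in normal growth. The serum libraries were above the normal growth libraries in both cell types, by a narrow margin in G13R cells. It reached 1 FPKM only in 3 serum libraries and so entered the test through the group where it was high. MMP13 rose by 0.83 ± 0.24 on the log2 scale in GFP cells (limma adjusted p = 0.0253), and its fold change in G13R cells was 0.29 ± 0.24 (limma adjusted p = 0.455). The call in GFP cells was lost in 4 of 15 alternative settings, with adjusted p up to 0.127.

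The cluster on chromosome 11 holds 9 MMP genes over 435 kb, of which these 4 are part. MMP3 had at least 132 FPKM in normal growth, and MMP1, whose annotated end lies 37.6 kb from the start of MMP3, did not exceed 2.77 FPKM. The other 5, MMP7, MMP8, MMP12, MMP20 and MMP27, had at most 1.11 FPKM in any library.

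MMP2, MMP14 and TIMP2, the genes of the surface complex that activates proMMP2, all rose with serum in both cell types. MMP2 (gelatinase A, chr16:55423612-55540603), which degrades denatured and basement membrane collagen, had 93.0 and 100.7 FPKM in G13R cells after serum and 67.5 and 73.7 FPKM in G13R cells in normal growth. GFP cells had 108.4 and 130.6 FPKM of MMP2 after serum and 57.8 and 64.6 FPKM in normal growth. The serum libraries lay above the normal growth libraries in each cell type. The log2 rise of MMP2 was 0.45 ± 0.11 in G13R cells (limma adjusted p = 0.0248) and 0.95 ± 0.11 in GFP cells (limma adjusted p = 3.05e-04). The call in G13R cells was lost in 6 of 16 alternative settings, with adjusted p up to 0.155, and that in GFP cells held in all 16.

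MMP14 (MT1-MMP, chr14:23305766-23318236), the membrane-anchored collagenase and activator, had 39.8 and 41.6 FPKM in G13R cells after serum and 23.7 and 20.7 FPKM in G13R cells in normal growth. In GFP cells its levels were 38.1 and 40.7 FPKM after serum and 16.7 and 17.9 FPKM in normal growth. The 4 serum libraries were close to each other whatever the transgene, and above the 4 normal growth libraries. Its log2 rise was 0.85 ± 0.11 in G13R cells (limma adjusted p = 0.00137) and 1.14 ± 0.11 in GFP cells (limma adjusted p = 1.07e-04), and both calls held in all 16 alternative settings, as did those of MMP3.

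TIMP2 (chr17:76849059-76921469) had 37.3 and 41.7 FPKM in G13R cells after serum and 22.4 and 23.9 FPKM in G13R cells in normal growth. GFP cells had 46.9 and 58.0 FPKM of TIMP2 after serum and 22.7 and 25.9 FPKM in normal growth. Normal growth libraries overlapped between the cell types, and after serum both GFP libraries were above both G13R libraries. The log2 rise of TIMP2 with serum was 0.75 ± 0.13 in G13R cells (limma adjusted p = 0.00555) and 1.07 ± 0.13 in GFP cells (limma adjusted p = 3.45e-04).

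TIMP3 (chr22:33197687-33259030), the TIMP that stays bound to the matrix and also inhibits ADAM proteases, had 11.3 and 12.6 FPKM in G13R cells after serum and 6.62 and 6.59 FPKM in G13R cells in normal growth. It had 16.4 and 19.8 FPKM in GFP cells after serum and 7.11 and 7.67 FPKM in GFP cells in normal growth. Serum libraries were above normal growth libraries in both cell types, and GFP libraries above G13R libraries in both conditions. TIMP3 rose by 0.76 ± 0.14 in G13R cells (limma adjusted p = 0.00854) and by 1.18 ± 0.14 in GFP cells (limma adjusted p = 3.90e-04), on the log2 scale. For TIMP2 and for TIMP3 the call in G13R cells was lost in 2 of 16 settings, each of which leaves out a G13R library (adjusted p up to 0.0626 and 0.0798). SYN3, within which TIMP3 lies, had at most 0.842 FPKM.

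TIMP1 (chrX:47441712-47446188), a secreted inhibitor of most soluble MMPs, varied over 0.31 log2 units between its highest and lowest group mean. It had 606 and 593 FPKM in G13R cells after serum and 496 and 550.3 FPKM in G13R cells in normal growth. In GFP cells it had 617 and 684 FPKM after serum and 524.5 and 554 FPKM in normal growth. The serum libraries were above the normal growth libraries in each cell type by a small margin. The log2 fold change of TIMP1 was 0.20 ± 0.08 in G13R cells (limma adjusted p = 0.132, not called), and TIMP1 rose by 0.27 ± 0.08 in GFP cells (limma adjusted p = 0.0295). The call in GFP cells was lost in 8 of 16 settings, with an adjusted p of 0.131 and a fold change of 0.19 without the 2nd GFP serum library. SYN1, within which TIMP1 lies, had at most 0.911 FPKM.

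**Figure D2:**
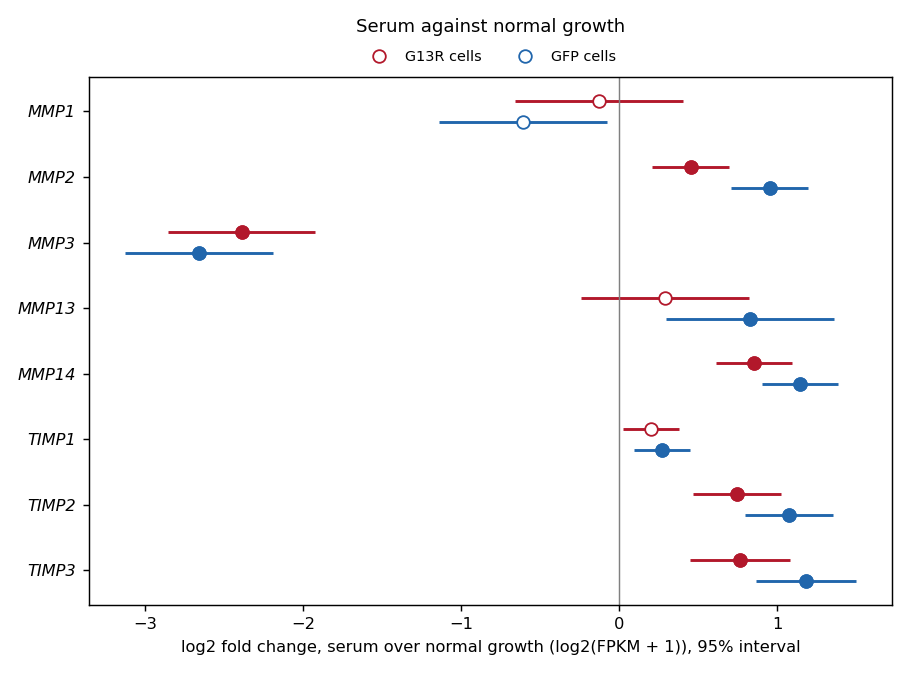
Log2 fold change of serum over normal growth, on the log2(FPKM + 1) scale (horizontal axis), for the 8 tested genes (vertical axis) in G13R cells (red) and GFP cells (blue). Points are limma estimates with 95% intervals, filled where the adjusted p is under 0.05; MMP3 lies at -2.39 and -2.66, and MMP2, MMP14, TIMP2 and TIMP3 lie between 0.45 and 1.18.

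In counts, serum changed 5 of the 8 tested genes in G13R cells, 4 of them higher and 1 lower, where 12.9% of all 12996 genes were called (8.26% higher and 4.62% lower). The count of 5 fell to 2, MMP3 and MMP14, without the 2nd G13R serum library or without the 1st G13R normal growth library. Serum changed 7 of the 8 in GFP cells, 6 higher and 1 lower, where 30.7% of all genes were called (14.9% higher and 15.7% lower). The median log2 fold change of the 8 was 0.37 in G13R cells and 0.89 in GFP cells, beside medians of 0.04 and 0.01 over all genes tested. The serum and normal growth libraries of all 8 did not overlap in either cell type, as was so for 60.7% of all genes in G13R cells and 66.3% in GFP cells. Since the 9 genes were chosen with these values known, nothing is read from how the members' shares compare with those of all genes. Without the 2nd GFP serum library the changes in GFP cells were 0.82 for MMP2, -2.28 for MMP3, 0.96 for MMP13, 1.09 for MMP14, 0.92 for TIMP2 and 1.05 for TIMP3, all still called by limma. MMP13 was tested only through its serum libraries; without it the counts were 5 of 7 in G13R cells and 6 of 7 in GFP cells, with medians of 0.45 and 0.95. Some markers of other cell types moved with serum as well. The epithelial gene CLDN4 had 9.18 and 10.9 FPKM in G13R cells after serum, 2.96 and 2.87 FPKM in G13R cells in normal growth, 12.1 and 11.1 FPKM in GFP cells after serum and 2.29 and 2.32 FPKM in GFP cells in normal growth. It carried the summed level of the 5 epithelial markers, which was 13.6 to 14.2 FPKM in G13R cells after serum, 7.07 to 10.2 FPKM in G13R cells in normal growth, 17.8 to 19.1 FPKM in GFP cells after serum and 6.89 to 9.75 FPKM in GFP cells in normal growth. CDH1, the defining epithelial cadherin, went the other way, with 1.15 and 0.632 FPKM in G13R cells after serum, 4.20 and 1.16 FPKM in G13R cells in normal growth, 1.49 and 0.498 FPKM in GFP cells after serum and 4.47 and 2.08 FPKM in GFP cells in normal growth. The summed level of the 5 neural markers was 21.5 to 23.5 FPKM in G13R cells after serum, 17.4 to 19.8 FPKM in G13R cells in normal growth, 21.7 to 24.3 FPKM in GFP cells after serum and 20.0 to 21.8 FPKM in GFP cells in normal growth. The neural markers did not move one way. In GFP cells MAP2 had 6.70 and 6.32 FPKM after serum, against 3.59 and 2.51 FPKM in normal growth. In G13R cells MAP2 had 7.66 and 5.78 FPKM after serum, against 3.48 and 2.54 FPKM. OLIG2 was lower after serum in GFP cells, with 3.29 and 3.55 FPKM against 5.85 and 6.46 FPKM. In G13R cells its serum and normal growth libraries overlapped. Their part in the result was not tested.

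The opposite movements of MMP3 and of the MMP2, MMP14 and TIMP genes changed the make-up of the set. Summed over the 6 MMP genes, the level was 196 ± 8.44 FPKM in G13R cells after serum, against 388 ± 21.8 FPKM in G13R cells in normal growth. In GFP cells it was 186 ± 7.73 FPKM after serum, against 234 ± 25.1 FPKM in normal growth. MMP3 made up 28.2% and 27.5% of that sum in G13R cells after serum, against 74.3% and 75.7% in G13R cells in normal growth. In GFP cells its share was 16.9% and 9.15% after serum, against 69.3% and 60.8% in normal growth. The leading MMP transcript was thus MMP2 in all 4 serum libraries and MMP3 in all 4 normal growth libraries. The ratio of MMP3 to MMP2 was 0.577 and 0.552 in G13R cells after serum and 4.10 and 4.14 in G13R cells in normal growth. It was 0.282 and 0.134 in GFP cells after serum and 3.03 and 2.04 in GFP cells in normal growth.

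**Figure D3:**
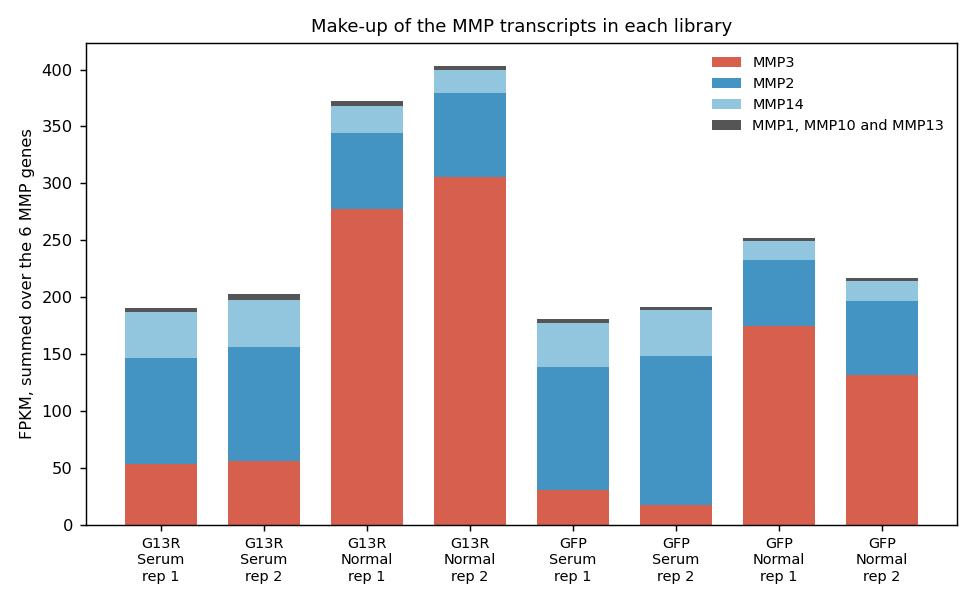
Summed FPKM of the 6 MMP genes (vertical axis, linear, from 0) in each of the 8 libraries (horizontal axis), stacked as MMP3, MMP2, MMP14 and the 3 low genes together. MMP3 is 74.3% and 75.7% of the bar in G13R normal growth libraries and 9.15% to 28.2% in the 4 serum libraries.

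Summed over the 3 TIMP genes, the level was 651 ± 4.82 FPKM in G13R cells after serum, against 553 ± 39.6 FPKM in G13R cells in normal growth. In GFP cells it was 721 ± 58.0 FPKM after serum, against 571 ± 23.7 FPKM in normal growth. TIMP1 was 89.8% to 94.8% of it in every library. The ratio of the MMP sum to the TIMP sum was 0.302 ± 0.0156 in G13R cells after serum, against 0.702 ± 0.0106 in G13R cells in normal growth. In GFP cells it was 0.258 ± 0.00990 after serum, against 0.412 ± 0.0608 in normal growth. The 3 TIMP transcripts outweighed the 6 MMP transcripts in every library, and the ratio was highest in G13R cells in normal growth, where MMP3 was highest. Summed over all MMP genes of the table, the level was 245 ± 7.78 FPKM in G13R cells after serum, against 428 ± 24.4 FPKM in normal growth. In GFP cells that wider sum was 232 ± 9.90 FPKM after serum, against 280 ± 23.8 FPKM in normal growth. It too was below the TIMP sum in every library. These sums are of RNA and say nothing of active enzyme.

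The comparison of G13R with GFP cells asks how these genes differ between the cells in either condition, and it shares libraries with the serum comparisons. No group overexpressed unmutated actin, so the mutation and the overexpression of actin cannot be told apart. After serum, MMP3 was higher in G13R cells by 1.20 ± 0.21 on the log2 scale (limma adjusted p = 0.0443), the 1 call among the 8 genes, where 0.823% of all genes were called. That call was lost in 10 of 16 alternative settings, among them the omission of any single library other than the 1st GFP serum library. Without the 2nd GFP serum library, in which MMP3 was lowest, the value was 0.82 (limma adjusted p = 0.111). MMP1 had a fold change of 1.02 ± 0.24 (adjusted p = 0.0675) and the TIMP3 value was -0.56 ± 0.14 (adjusted p = 0.083), neither called by limma. For MMP2 the value was -0.30 ± 0.11, for TIMP2 -0.39 ± 0.13, for MMP13 -0.46 ± 0.24, for TIMP1 -0.12 ± 0.08 and for MMP14 0.05 ± 0.11. The estimate for MMP14 had a 95% interval of -0.19 to 0.29. Without the 2nd GFP serum library the values were 0.73 for MMP1, -0.16 for MMP2, -0.59 for MMP13, 0.09 for MMP14, -0.04 for TIMP1, -0.25 for TIMP2 and -0.43 for TIMP3. G13R and GFP libraries did not overlap for 7 of the 8 genes after serum, as was so for 51.9% of all genes.

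In normal growth none of the 8 was called between G13R and GFP cells by limma, where 0.0462% of all genes were called. An unadjusted limma p under 0.05 was found for 3 of the 8 (MMP1, MMP3 and MMP14) and for 1968 of the 12996 genes tested. The MMP3 fold change was 0.93 ± 0.21 (adjusted p = 0.134), with a 95% interval of 0.47 to 1.40, and it was called without either of the GFP serum libraries, which are not part of this comparison but enter its estimate of spread (limma adjusted p = 0.0177 without the 1st and 0.0171 without the 2nd). That of MMP1 was 0.54 ± 0.24, that of MMP14 was 0.34 ± 0.11, that of MMP2 was 0.20 ± 0.11 and that of MMP13 was 0.08 ± 0.24. The TIMPs had small values, -0.05 ± 0.08 for TIMP1, -0.07 ± 0.13 for TIMP2 and -0.14 ± 0.14 for TIMP3. For TIMP1 and TIMP2 the sign turned under other scalings. Libraries of the cell types did not overlap for 5 of the 8 genes, as was so for 48.7% of all genes. The summed level of 7 leukocyte and macrophage markers was higher in G13R cells, as MMP3 was, mainly through ITGAM. That sum was 4.57 to 6.45 FPKM in G13R cells after serum, 5.65 to 7.32 FPKM in G13R cells in normal growth, 2.203 to 3.46 FPKM in GFP cells after serum and 2.37 to 4.07 FPKM in GFP cells in normal growth. ITGAM had 4.82 and 3.35 FPKM in G13R cells after serum, 5.38 and 3.92 FPKM in G13R cells in normal growth, 1.33 and 2.03 FPKM in GFP cells after serum and 1.70 and 1.64 FPKM in GFP cells in normal growth. CSF1R overlapped between the cell types in normal growth, and PTPRC, the pan-leukocyte marker, had 0.0676 and 0.0528 FPKM in G13R cells after serum, against 0.162 and 0.814 FPKM in GFP cells after serum. Their part in the result was not tested.

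**Figure D4:**
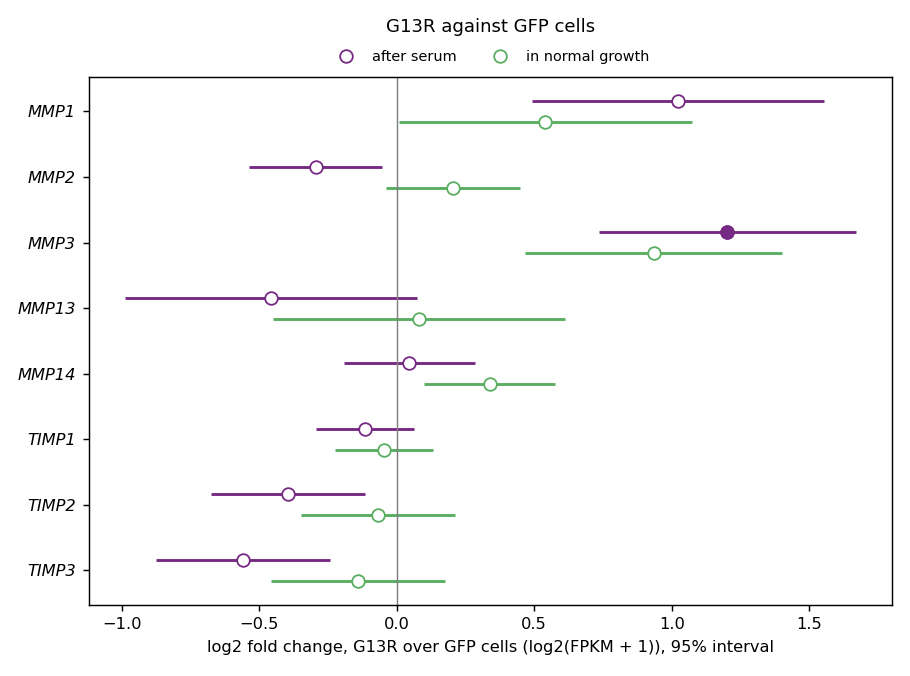
Log2 fold change of G13R over GFP cells, on the log2(FPKM + 1) scale (horizontal axis), for the 8 tested genes (vertical axis) after serum (purple) and in normal growth (green). Points are limma estimates with 95% intervals, filled where the adjusted p is under 0.05; the 1 filled point is MMP3 after serum, at 1.20.

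Whether the serum response itself differed between the cells was tested as the response of G13R cells minus that of GFP cells. No gene of the 8, and 0 of 12996 genes in all, was called by limma, and 1 of the 8 (MMP2) and 1533 of all genes had an unadjusted p under 0.05. For MMP2 the difference was -0.50 ± 0.15 on the log2 scale (adjusted p = 0.291), with a 95% interval of -0.84 to -0.16. For TIMP3 it was -0.42 ± 0.20, for TIMP2 -0.33 ± 0.18, for MMP14 -0.29 ± 0.15 and for TIMP1 -0.07 ± 0.11. The low genes MMP13 and MMP1 had differences of -0.54 ± 0.34 and 0.48 ± 0.34. The MMP3 difference was 0.27 ± 0.30, with an interval of -0.39 to 0.93, and it turned to -0.12 without the 2nd GFP serum library. That the call counts were 5 in G13R cells and 7 in GFP cells therefore does not show that the responses differ. The MMP2 difference was -0.63 without the 1st GFP serum library and -0.37 without the 2nd. Without the 2nd the other differences were -0.29 for TIMP3, -0.18 for TIMP2, -0.24 for MMP14 and 0.0048 for TIMP1. For MMP13 and MMP1 they were -0.67 and 0.19.

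Of the 18 other MMP and TIMP genes in the table, 10 stayed under 1 FPKM in every library, with MMP26 listed at 0 in all 8, and 7 were tested. In this and the next paragraphs, rose and fell are used of genes called by limma over all genes tested, with log2 fold changes. The list counts stand beside 12.9% of all genes called with serum in G13R cells and 30.7% in GFP cells. No conclusion is drawn from them. With serum 1 of these 7 was called in G13R cells: MMP9 (gelatinase B) rose by 0.82 ± 0.16 and had 16.9 ± 1.55 FPKM after serum, against 9.25 ± 2.05 FPKM in normal growth. The MMP9 call was lost without the 1st G13R normal growth library or either G13R serum library (limma adjusted p up to 0.0990). In GFP cells 4 of the 7 were called. MMP24 (MT5-MMP), with 9.99 ± 2.92 FPKM after serum and 3.85 ± 0.365 FPKM in normal growth, rose by 1.16, and MMP17 (MT4-MMP) rose by 0.93. MMP17 is named after its values were seen, since it averaged under 2 FPKM, and it reached 1 FPKM only in the 4 serum libraries, so that it was tested through the groups where it was high. MMP16 (MT3-MMP), with 8.36 ± 0.273 FPKM after serum and 15.6 ± 0.520 FPKM in normal growth, fell by 0.83, and MMP19 fell by 0.54, a call that most alternative settings did not keep (limma adjusted p 0.0495, and up to 0.235). Without the 2nd GFP serum library 2 of the 7 were called, MMP24 at 0.88 and MMP16 at -0.86. The membrane-type enzymes did not move one way.

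Among 11 genes of proMMP activation and the plasminogen system, 8 were tested. With serum 3 rose and 3 fell in G13R cells, and 3 rose and 2 fell in GFP cells. The urokinase gene PLAU rose by 0.69 in G13R cells, with 68.8 ± 2.22 FPKM after serum and 42.2 ± 0.700 FPKM in normal growth. Its receptor PLAUR, which focuses plasmin formation on the cell surface, fell by 0.77, with 36.9 ± 3.88 FPKM after serum and 63.6 ± 0.489 FPKM in normal growth. SERPINE2, an inhibitor of thrombin and urokinase, rose by 0.74. In GFP cells PLAU rose by 0.47, SERPINE2 by 0.56 and PLAT (tissue plasminogen activator) by 0.84, and PLAUR fell by 1.42. PLAT also rose by 0.64 in G13R cells, a call lost in 7 of 16 alternative settings. The PLAU call in GFP cells was lost in 6 of 16 alternative settings.

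Of 10 further inhibitors, clearance receptors and binding partners, 8 were tested, of which 3 rose and 0 fell in G13R cells with serum by limma, and 4 rose and 1 fell in GFP cells. THBS1, a matrix protein that binds MMP2, rose by 0.98 in G13R cells, with 108 ± 9.29 FPKM after serum and 54.3 ± 2.44 FPKM in normal growth, and by 1.15 in GFP cells. LRP1, the endocytic receptor that clears MMP and TIMP complexes, rose by 0.74 in G13R cells and by 1.20 in GFP cells. Its call in G13R cells was lost in 6 of 16 alternative settings. CD63, a surface partner of TIMP1, rose by 0.37 in G13R cells, a call lost in 4 of 16 settings. In GFP cells CD63 rose by 0.42, a call lost in 0 of 16. RECK, a membrane-anchored MMP inhibitor, rose by 0.61 in GFP cells, a call lost in 9 of 15 settings.

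The related ADAM and ADAMTS proteases went both ways in each cell type, with 2 of 15 tested genes higher and 4 lower after serum. In G13R cells ADAM19 fell by 0.98, with 16.8 ± 0.917 FPKM after serum and 34.3 ± 1.36 FPKM in normal growth, ADAMTS6 fell by 0.97 and ADAM12 by 0.92. In GFP cells ADAMTS6 fell by 1.51, with 14.3 ± 1.70 FPKM after serum and 42.5 ± 1.92 FPKM in normal growth, ADAM12 fell by 1.49 and ADAMTS10 rose by 1.15. The ADAMTS10 call was lost in 4 of 16 alternative settings, and its value was 0.97 without the 2nd GFP serum library.

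Of 13 tested matrix proteins that MMPs can cleave, 4 rose and 1 fell in G13R cells with serum, and 5 rose and 2 fell in GFP cells. Fibronectin (FN1) rose by 0.91 in G13R cells, with 139 ± 11.5 FPKM after serum and 73.8 ± 3.09 FPKM in normal growth. In GFP cells FN1 rose by 0.61. COL6A1 rose by 0.85 in G13R cells and by 0.90 in GFP cells, and the laminin chain LAMA5 by 0.83 in G13R cells and by 1.32 in GFP cells. Another chain of the same collagen, COL6A3, fell by 0.72 in G13R cells and by 0.88 in GFP cells. After serum COL6A3 was also higher in G13R than in GFP cells by 0.54 (limma adjusted p = 0.0443), with 27.2 ± 0.970 FPKM in G13R cells and 18.4 ± 0.782 FPKM in GFP cells, the 1 call of this list. That call was lost in 10 of 16 alternative settings, and without the 2nd GFP serum library the value was 0.59 (limma adjusted p = 0.115).

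Of 18 transcription factors known to act on MMP promoters, all tested, 6 rose and 1 fell in G13R cells with serum, and 7 rose and 2 fell in GFP cells. FOS had 43.2 ± 7.75 FPKM in G13R cells after serum, 5.77 ± 1.31 FPKM in G13R cells in normal growth, 176 ± 94.1 FPKM in GFP cells after serum and 4.33 ± 0.407 FPKM in GFP cells in normal growth. JUN had 91.9 ± 2.82 FPKM in G13R cells after serum, 47.4 ± 2.50 FPKM in G13R cells in normal growth, 127 ± 27.5 FPKM in GFP cells after serum and 40.4 ± 0.0850 FPKM in GFP cells in normal growth. FOS, JUN and EGR1 rose with serum by 2.71, 0.94 and 3.08 in G13R cells and by 4.95, 1.61 and 3.51 in GFP cells. FOSB rose by 3.34 in GFP cells and was not called in G13R cells, at 0.68 (limma adjusted p = 0.192). JUND rose by 1.19 in G13R cells, a call lost in 6 of 16 alternative settings, and by 1.64 in GFP cells, a call lost in 0 of 16. The factors that fell were FOSL2 in G13R cells, by 0.52, and FOSL1 and CEBPB in GFP cells, by 0.59 and 0.46. FOSL1 and FOSL2 are named after their values were seen. The FOSL2 call was lost in 4 of 16 alternative settings. The part of these factors in the fall of MMP3 was not tested. After serum FOS was lower in G13R than in GFP cells, at a fold change of -1.91 (limma adjusted p = 0.0376), and CEBPB was higher at 0.45 (limma adjusted p = 0.0487). The FOS call was lost in 10 and the CEBPB call in 11 of 16 alternative settings. The GFP serum libraries had 109.8 and 243 FPKM of FOS, and without the 2nd the value was -1.34 for FOS (limma adjusted p = 0.0855) and 0.51 for CEBPB (limma adjusted p = 0.115).

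Of 12 tested ligands known to induce MMP genes, 2 rose and 1 fell in G13R cells with serum, and 1 rose and 3 fell in GFP cells. Over all genes tested, 12.9% were called in G13R cells and 30.7% in GFP cells. TGFB2 rose by 0.75 in G13R cells, a call lost in 10 of 16 alternative settings, and by 0.79 in GFP cells, where it was lost in 4 (0.43 without the 2nd GFP serum library, limma adjusted p = 0.128). The EGF family ligand AREG rose by 0.94 in G13R cells, with 11.7 ± 1.49 FPKM after serum and 5.59 ± 0.239 FPKM in normal growth. IL11 fell by 0.66 in G13R cells, a call lost in 5 of 16 alternative settings, and by 0.59 in GFP cells, where it was lost in 3. In GFP cells HBEGF fell by 0.71, and IL1A, a classical inducer of MMP3, fell by 0.76, with 1.29 ± 0.345 FPKM after serum and 2.88 ± 0.516 FPKM in normal growth. That IL1A call was lost in 4 of 15 alternative settings, and the value was -0.61 without the 2nd GFP serum library. In G13R cells IL1A was not called, at -0.26 (limma adjusted p = 0.444). Between G13R and GFP cells in normal growth no gene of these lists was called by limma, and after serum the calls were the 3 named above. The gene lists were written with results of these data known.

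Genes outside the family that followed the pattern of the 3 widest ranging members most closely were looked for among genes averaging at least 2 FPKM, by Pearson's r of log2(FPKM + 1) over the 8 libraries. Those libraries fall into a serum and a normal growth block, so that many genes reach a high r, and r is given as a description. Nearest to MMP3 were ANTXR2, which encodes an anthrax toxin receptor that binds collagen VI (r = 0.998), the sphingosine kinase gene SPHK1 (r = 0.991) and NRIP3 (r = 0.988). ANTXR2 had 38.3 and 40.1 FPKM in G13R cells after serum and 75.0 and 76.5 FPKM in G13R cells in normal growth. GFP cells had 29.2 and 23.99 FPKM of ANTXR2 after serum and 59.3 and 54.2 FPKM in normal growth. It thus had the same order of the 4 groups as MMP3 over a narrower range. Nearest to TIMP3 were the thrombin receptor gene F2R (r = 0.998), ARHGAP28 (r = 0.998) and the actin monomer binding gene TMSB4X (r = 0.997). Nearest to MMP14 were MICAL1, which encodes an oxidase of actin filaments (r = 0.995), ZSWIM4 (r = 0.993) and RDH5 (r = 0.988).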

How the data were processed

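Per the labels' protocols, poly(A) RNA of the 8 samples was enriched with oligo(dT) beads and sequenced with Illumina chemistry. The authors deposited 1 table of FPKM for 22504 genes. The submitters' processing notes name TopHat2 2.0.13, Cufflinks 2.2.1 and the builds hg19 and BDGP5; gene spans fit hg19 and were given a start 1 base later, to count from 1. Read counts were not used here, and whole reads could not be recovered from the FPKM: among genes under 0.25 FPKM, 6.83% to 15.5% of values lay at the commonest ratio. Depth is therefore unknown, and no counting interval is given.

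From these values, log2(FPKM + 1) was fitted with limma 3.58.1 in R 4.3.3 with an intensity trend, 1 mean per group and all 8 libraries (4 residual degrees of freedom), over the 12996 genes that reached 1 FPKM in 2 or more libraries. The Benjamini-Hochberg adjusted p was taken over all of these, at a threshold of 0.05. Fold changes on this scale understate changes of low genes. The fit was checked on simulated data with independent noise and the same spread of a gene in all libraries. That check held no library that stood apart, so it does not cover the effect of the 2nd GFP serum library. All 9 members are named; of each gene list and comparison, up to 3 called genes of largest change are named, if the libraries did not overlap and the gene averaged 2 FPKM or more, and FOS, JUN, PLAU and ACTB always. A gene that this rule names is not reported here. The members and lists were chosen with earlier results of these data known. Other pseudocounts, filters, scalings, a replicate block and the omission of each library were tried.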

Additional observations from a re-analysis of the deposited data

Results flagged for a closer look

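MMP2 was singled out because G13R and GFP cells differed in opposite directions in the 2 conditions: G13R libraries were both below GFP libraries after serum (93.0 and 100.7 FPKM in G13R cells, 108.4 and 130.6 FPKM in GFP cells) and both above them in normal growth (67.5 and 73.7 FPKM in G13R cells, 57.8 and 64.6 FPKM in GFP cells). In normal growth the ratio of the means, G13R over GFP, was 1.15. Neither difference was called by limma. The log2 fold change was -0.30 ± 0.11 after serum (limma adjusted p = 0.167) and 0.20 ± 0.11 in normal growth (limma adjusted p = 0.413). Libraries of the 2 cell types did not overlap for 51.9% of all genes after serum and for 48.7% in normal growth. How many genes turn in this way was not counted. The difference between the serum responses was tested with limma and not called, at -0.50 ± 0.15 (adjusted p = 0.291). It was -0.63 without the 1st GFP serum library and -0.37 without the 2nd. With 2 libraries a group, a library could not be checked as an outlier for single genes.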

How the results depend on the processing

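Over the members' fold changes and all alternatives, 568 values kept their direction and side of the threshold, 32 lost a call, 12 gained one and 10 changed sign. Leaving out 1 library at a time, the count of members called with serum ranged from 2 (without the 2nd G13R serum or the 1st G13R normal growth library) to 5 in G13R cells (5 with all libraries) and from 5 to 7 in GFP cells (7 with all), that of G13R against GFP from 0 to 5 after serum (1 with all, 5 without the 1st GFP serum library) and from 0 to 1 in normal growth (0 with all, 1 without either GFP serum library), and that of the difference of responses from 0 to 1 (0 with all). For G13R against GFP after serum the count was 0 without a filter, 0 without the intensity trend and 0 with only the compared libraries fitted; in normal growth the last setting gave 1. Same-numbered libraries deviated together with correlations of 0.017 to 0.122, all positive but not all above 0.1. These low values do not settle whether the replicate numbers pair the libraries, and the reported fit did not use them. For G13R against GFP after serum, the replicate block gave 2 members, adding MMP1 (limma adjusted p = 0.0491). It left the other 4 member counts as they were. Over all genes the block raised the calls between G13R and GFP cells. They went from 107 to 403 after serum and from 6 to 83 in normal growth. Signs turned in normal growth, G13R against GFP, for TIMP1 (0.033 with median-ratio and 0.121 with quantile scaling, and -0.121 to 0.0296 leaving out libraries) and TIMP2 (0.007 and 0.0219, and -0.1597 to 0.0225); after serum for TIMP1 (0.0374 with quantile scaling); and in the difference of responses for MMP3 (-0.116 to 0.652) and TIMP1 (-0.145 to 0.0051), leaving out libraries. The cause was not tested. Counts over all genes ranged from 412 (without the 2nd G13R serum library) to 2353 (without the 1st GFP serum library) for serum in G13R cells (1675 in the reported fit), from 2146 (without the 1st GFP normal growth library) to 4288 (without the 1st GFP serum library) in GFP cells (3985), from 4 (no filter) to 1628 (without the 1st GFP serum library) for G13R against GFP after serum (107), from 4 to 87 (without the 2nd GFP serum library) in normal growth (6) and from 0 to 486 (without the 1st GFP serum library) for the difference (0). The lists' counts called with serum in G13R cells ranged from 1 to 6 for proMMP activation (6 reported), 1 to 5 for inhibitors and partners (3), 3 to 8 for ADAM and ADAMTS genes (6), 3 to 6 for substrates (5), 3 to 8 for transcription factors (7) and 1 to 3 for ligands (3); in GFP cells they were 3 to 6 (5), 4 to 5 (5), 3 to 6 (6), 6 to 8 (7), 9 to 11 (9) and 1 to 4 (4) in that order. The other MMP and TIMP genes gave 0 to 2 (1) in G13R cells and 2 to 4 (4) in GFP cells. After serum, G13R against GFP gave 0 to 11 transcription factors (2), 0 to 6 substrates (1), 0 to 5 proMMP activation genes (0), 0 to 3 ligands (0), 0 to 2 inhibitors and partners (0), 0 to 1 other MMP and TIMP genes (0) and 0 ADAM and ADAMTS genes in every setting. Of calls, 64.1% were higher for serum in G13R cells (53.1% with median-ratio scaling), and 40.2% for G13R against GFP after serum (51.7% with quantile scaling). The number of libraries, 2 a group, limits the precision.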
